A study of Mus musculus with 8 samples.

Results

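Recent gene models of the mouse genome that were well expressed in αTC1-6 cells and passed a limit on the ratio between plasmids numbered 202. αTC1-6 is a glucagon-making alpha cell line from mouse pancreas. Members were chosen by their Ensembl ID and by measured values. Their IDs are numbered ENSMUSG00000118000 or higher, and their level averaged at least 5 CPM over 8 libraries, where CPM is the estimated count per 1000000 counts of the library. Their mean CPM with the Yy1 plasmid also had to stay under 2 times that with the empty plasmid. They made up 0.745% of the 27110 IDs in that range of numbers, in a table of 75078 IDs. The members were thus selected on both their levels and the ratio of the groups, so the differences between the plasmids given here are a description of them.

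Transfection followed seeding by 24 h, in DMEM with the label 11 mM. The cells received a Yy1-overexpressing plasmid (4 libraries, samples 45, 46, 47 and 48), or an empty stuffer plasmid (4 libraries, samples 31, 32, 33 and 34). Yy1 is a transcription factor with zinc fingers. Both groups are the same line and both were transfected. Poly(A) RNA was read by sequencing. The labels do not say that the samples came from separate cultures, so the spread behind each p-value may be technical. Nor do they say whether the groups were handled together, so any difference in handling cannot be told apart from that of the plasmids.

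Genome annotation grows as sequenced transcripts are added, and Ensembl numbers a gene when its model is created, so a high number marks a model that entered late. Many late models are long noncoding RNAs, readthrough transcripts, pseudogene transcripts or a new ID for a gene known before. A long noncoding RNA is a transcript without a recognised open reading frame. Tools that estimate counts share a read that matches several transcripts among them, so a model that overlaps or resembles another can receive a part of its reads.

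Summed counts ran from 29680177 to 33347445 with the Yy1 plasmid and from 20679804 to 30570601 with the empty plasmid, where library 33 was the smallest. A value of 0 there is compatible with 3 counts, or 0.145 CPM, from counting error alone. Yy1 itself averaged 5222 ± 471 CPM with the Yy1 plasmid and 175 ± 5.67 CPM with the empty plasmid (SD, n = 4 each), a 29.8-fold difference in the direction of the labels. All 10 alpha cell markers were at 1 CPM or more, with sums of 28988 to 29912 CPM with the Yy1 plasmid and 28690 to 29990 CPM with the empty plasmid. Of 7 beta cell markers only Nkx6-1 was, and Ins1 and Ins2 were at 0 in all libraries. The beta cell sums were 48.9 to 59.0 CPM with the Yy1 plasmid and 53.1 to 57.5 CPM with the empty plasmid. None of 4 delta and PP cell markers reached 1 CPM, 3 of 7 acinar and duct markers did, and so did 1 of 8 markers of stroma, endothelium and immune cells, with sums of at most 19.2 CPM. In bulk RNA fewer cells of a type and less RNA per cell cannot be told apart.

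Few recent models reached the level of the members. Of the 27110 recent IDs, 14505, or 53.5%, had no count in any library. A mean of at least 0.1 CPM was reached by 3450, of at least 1 CPM by 697 and of at least 5 CPM by 206. By comparison 10485 of 47968 IDs with lower numbers, or 21.9%, averaged at least 5 CPM. The members held 82.5% of all counts that fell on recent IDs.

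The members' levels were low for the most part and led by a few models. Their mean level ran from 5.06 to 1612 CPM, with a median of 12.5 CPM and quartiles of 7.30 and 34.9 CPM. There were 80 members from 5 to 10 CPM, 48 from 10 to 20, 34 from 20 to 50, 19 from 50 to 100, and 21 at 100 CPM or more. The 11 most abundant held at least 50% of the members' summed counts. CPM is not divided by transcript length, so an order by CPM is one of reads and not of molecules.

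The most abundant member was ENSMUSG00000119584, a model without a symbol in the annotation used here. It had 1686, 1248, 1749 and 1259 CPM with the Yy1 plasmid, against 1418, 1226, 2686 and 1621 CPM with the empty plasmid. Empty plasmid 33 stood highest, and the groups overlapped. This model alone was 16.1% of the members' sum, and its log2 fold change of -0.23 had an SE of 0.287 (edgeR quasi-likelihood fit). Without empty plasmid 33 the ratio of group means was 1.04, against 0.855 with all libraries.

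The next model was far steadier. ENSMUSG00000141158 had 915, 1030, 992 and 1018 CPM with the Yy1 plasmid, against 987, 981, 1055 and 991 CPM with the empty plasmid. Its groups overlapped, and the log2 fold change was -0.02 (SE 0.0453). A neighbouring pair of ID numbers followed. ENSMUSG00000121776 had 502, 489, 542 and 493 CPM with the Yy1 plasmid, against 529, 433, 575 and 447 CPM with the empty plasmid. ENSMUSG00000121777 had 322, 313, 325 and 317 CPM with the Yy1 plasmid, against 325, 299, 390 and 287 CPM with the empty plasmid. Both models spread more widely with the empty plasmid, where library 33 was highest for each.

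The other 8 of the 12 most abundant models averaged 182 to 292 CPM. ENSMUSG00000120992 was the one of the 12 whose groups did not overlap, with 278, 286, 286 and 282 CPM with the Yy1 plasmid, against 294, 295, 320 and 291 CPM with the empty plasmid. Its difference was small, the log2 fold change being -0.08 (SE 0.0409). The models ENSMUSG00000138269, ENSMUSG00000121042, ENSMUSG00000121784, ENSMUSG00000128633, ENSMUSG00000127259, ENSMUSG00000121345 and ENSMUSG00000144212 had log2 fold changes from -0.10 to 0.02. ENSMUSG00000127259 was the least even of these, with 185, 199, 203 and 190 CPM with the Yy1 plasmid, against 196, 189, 263 and 185 CPM with the empty plasmid. In the order of mean CPM, ENSMUSG00000120992 and ENSMUSG00000138269 differed by less than the larger of their SDs over 8 libraries, and so did each pair of neighbours from ENSMUSG00000121784 down. All other neighbours in the order differed by more than that.

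**Figure D1:**
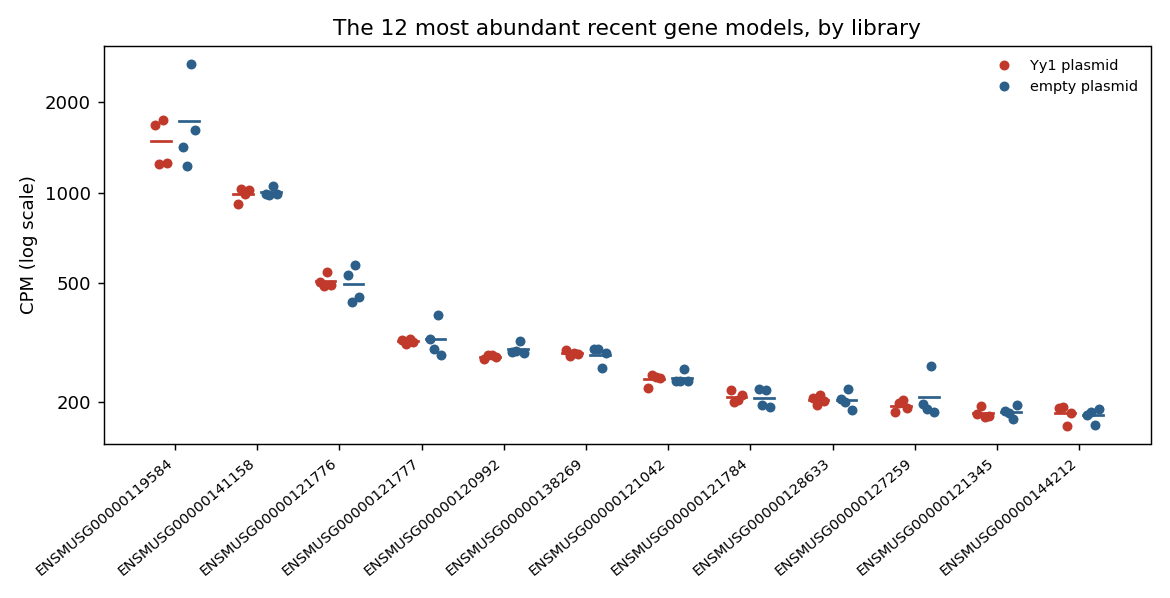
CPM (log scale) of the 12 most abundant recent gene models in each library, with the Yy1 plasmid left of the empty plasmid and lines at the group means of 4 libraries. The most abundant model lies between 1226 and 2686 CPM, with empty plasmid 33 highest.

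As a share of all counts, the members stood alike in both groups. Their summed level was 10039, 9654, 10177 and 9515 CPM with the Yy1 plasmid, against 9866, 9326, 11486 and 9884 CPM with the empty plasmid. Only empty plasmid 33 lay apart from the other 7 libraries. The share of all counts was 0.985% ± 0.0313 with the Yy1 plasmid and 1.01% ± 0.0934 with the empty plasmid (SD, n = 4 each), a ratio of 0.971. Without empty plasmid 33 the ratio was 1.02. Without the most abundant model the sums were 8361 ± 76.6 CPM with the Yy1 plasmid and 8403 ± 301 CPM with the empty plasmid (SD, n = 4 each).

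Members were spread unevenly over the ID numbers. From ENSMUSG00000118000 to ENSMUSG00000121999, 111 of 3446 IDs were members, or 3.22%, and the share was highest from ENSMUSG00000121000 up within that range, with 59 of 965 IDs, or 6.11%. From ENSMUSG00000122000 to ENSMUSG00000144999 it was 90 of 21507 IDs, or 0.418%. Of the 2157 IDs with numbers of ENSMUSG00001000000 or higher, only ENSMUSG00002076083 was a member, at 19.3 ± 1.01 CPM with the Yy1 plasmid and 21.9 ± 2.27 CPM with the empty plasmid (SD, n = 4 each). The median level was much the same in the first 2 of these ranges, at 12.5 and 12.3 CPM.

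Some members bore consecutive numbers. There were 10 such runs with 23 members, and the longest held 4. In the block from ENSMUSG00000118662 to ENSMUSG00000118669, 7 of 8 IDs were members, at mean levels of 6.98 to 101 CPM. Its most abundant model, ENSMUSG00000118664, had 109, 99.7, 100 and 99.1 CPM with the Yy1 plasmid, against 103, 99.1, 96.1 and 100 CPM with the empty plasmid. All 7 had ratios between 0.934 and 1.08. In the block from ENSMUSG00000121776 to ENSMUSG00000121798, 10 of 21 IDs were members, and they held 13.9% of the members' sum. Their levels ran from 8.19 to 501 CPM, and their ratios from 0.882 to 1.10. All 10 had fractional values in all 8 libraries. Where these models lie was not analysed here.

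Fractional values were frequent among the members, and the rule did not use them. An estimated count that is not whole arises where reads are shared between transcripts. Values were fractional in all 8 libraries for 137 members, or 67.8%, and whole in all 8 for 30 members, or 14.9%. The remaining 35 were mixed. Among the 10485 lower-numbered genes at 5 CPM or more, 26.8% were fractional in all libraries and 47.9% were whole in all. Protein-coding genes of that level had 25.6% fractional in all, long noncoding genes 51.1% and pseudogenes 89.4%, so the members lay between the last 2 classes. The most abundant member, ENSMUSG00000119584, was whole in all 8 libraries. These are shares over genes that are not independent, and they were not tested.

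A pair of members could not be told apart at all. ENSMUSG00000118841 and ENSMUSG00000118866 had the same value in every library, with 7.55, 4.07, 10.04 and 4.87 CPM with the Yy1 plasmid, against 5.09, 3.70, 10.9 and 4.59 CPM with the empty plasmid. Libraries 45, 47 and 33 were the high ones, and the groups overlapped. The 2 IDs thus give 1 measurement, not 2.

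The annotation GENCODE mouse release 21, which is of an older build than the files, named 9 members. This release ends at ID number 118393, which leaves most members unnamed, and their kinds of gene were not analysed here. The 9 are 3 protein-coding genes, 4 long intergenic noncoding RNAs (lincRNA), 1 sense intronic and 1 antisense transcript. None was called, and the difference furthest from zero was that of Sssca1.

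Of the coding genes, Fam220a (ENSMUSG00000118332, chromosome 5) averaged 17.4 ± 0.305 CPM with the Yy1 plasmid and 17.4 ± 1.32 CPM with the empty plasmid (SD, n = 4 each; log2 fold change 0.00, SE 0.0676). Tmem179b (ENSMUSG00000118346, chromosome 19), a predicted membrane protein gene, averaged 8.88 ± 0.457 CPM with the Yy1 plasmid and 9.01 ± 1.43 CPM with the empty plasmid (SD, n = 4 each; log2 fold change -0.02, SE 0.0992). These were the only members with an entry in the RefSeq promoter table of build GRCm38.p6, and the bases before their starts are shown because Yy1 is known to bind motifs around the core CCAT. Capitals mark CCAT on either strand. The first lies at chr5:143548470-143548719 on the plus strand and the second at chr19:8774468-8774717 on the minus strand, both written 5′ to 3′.
Fam220a promoter: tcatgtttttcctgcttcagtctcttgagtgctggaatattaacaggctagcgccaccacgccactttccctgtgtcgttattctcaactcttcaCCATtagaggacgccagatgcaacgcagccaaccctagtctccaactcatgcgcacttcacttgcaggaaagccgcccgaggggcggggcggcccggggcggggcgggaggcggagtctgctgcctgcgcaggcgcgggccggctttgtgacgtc
Tmem179b promoter: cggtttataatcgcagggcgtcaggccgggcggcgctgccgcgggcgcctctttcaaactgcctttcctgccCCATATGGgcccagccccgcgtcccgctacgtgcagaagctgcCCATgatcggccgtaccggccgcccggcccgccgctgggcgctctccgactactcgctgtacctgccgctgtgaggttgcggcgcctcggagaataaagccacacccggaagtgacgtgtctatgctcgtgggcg
The core was found 1 time before Fam220a and 3 times before Tmem179b, where 2 matches adjoin on opposite strands. It was also found in 77.4% of 32851 such windows of 250 bases. The longer form GCCATNTT, searched on both strands, was in neither window and in 3.91% of all.

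The third coding member, Sssca1 (ENSMUSG00000118125, chromosome 19), shares its symbol with a lower-numbered ID. It also overlaps Fam89b on its own strand and Gm16538 on the other. It had 10.8, 9.71, 9.95 and 9.61 CPM with the Yy1 plasmid, against 14.1, 11.9, 11.9 and 10.8 CPM with the empty plasmid. The lowest empty plasmid library was just above the highest Yy1 plasmid library, and the log2 fold change was -0.28 (SE 0.0852). The other ID with the symbol, ENSMUSG00000079478, averaged 24.6 ± 1.09 CPM with the Yy1 plasmid and 22.8 ± 1.39 CPM with the empty plasmid (SD, n = 4 each). The sum of both IDs averaged 34.6 ± 1.28 CPM with the Yy1 plasmid and 35.0 ± 2.41 CPM with the empty plasmid (SD, n = 4 each). Values of both IDs were fractional in all 8 libraries, so the split between them is uncertain. Whether reads were also shared with Fam89b or Gm16538 was not tested. Fam220a also has a second ID, ENSMUSG00000083012, at 13.8 ± 1.19 CPM with the Yy1 plasmid and 14.7 ± 0.462 CPM with the empty plasmid (SD, n = 4 each). The sum of both Fam220a IDs averaged 31.1 ± 1.03 CPM with the Yy1 plasmid and 32.1 ± 1.71 CPM with the empty plasmid (SD, n = 4 each). Both were fractional in all 8 libraries, so the split between the Fam220a IDs is uncertain as well.

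Of the noncoding members, the lincRNA AC158975.2 was the most abundant, with 130 ± 4.81 CPM with the Yy1 plasmid and 128 ± 5.02 CPM with the empty plasmid (SD, n = 4 each). AC132253.6 averaged 7.49 ± 0.614 CPM with the Yy1 plasmid and 7.28 ± 0.0452 CPM with the empty plasmid, and AC136710.2 averaged 5.09 ± 0.970 CPM with the Yy1 plasmid and 5.26 ± 0.487 CPM with the empty plasmid (SD, n = 4 each). AC166575.1, inside an intron of Pknox1, averaged 6.42 ± 1.04 CPM with the Yy1 plasmid and 6.49 ± 1.11 CPM with the empty plasmid (SD, n = 4 each). 4930549G23Rik, antisense to Seh1l, averaged 6.28 ± 0.564 CPM with the Yy1 plasmid and 6.16 ± 0.588 CPM with the empty plasmid (SD, n = 4 each). AC166575.1 lies on the same strand as Pknox1, and 4930549G23Rik also overlaps Gm26910 on its own strand. Strand does not separate the reads of such pairs, so they may be mixed. The library kit keeps strand, but whether the counting used it is not given in the sources used here. Reads of 4930549G23Rik and Seh1l may thus be mixed as well. Each of these 5 models differed between the groups by less than its SD in at least 1 of them.

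AC117816.1 (ENSMUSG00000118366), a lincRNA on chromosome 19, averaged 26.9 ± 2.94 CPM with the Yy1 plasmid and 24.9 ± 3.80 CPM with the empty plasmid (SD, n = 4 each; log2 fold change 0.11, SE 0.107). Its groups overlapped. The values of AC117816.1 were fractional in 3 of 8 libraries.

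The differences between the plasmids were small for most members. The log2 fold changes had a median of 0.0015 and quartiles of -0.07 and 0.07, and ran from -0.61 to 0.95. They were positive for 102 members and negative for 100. Over all 15916 tested genes the median was -0.0025. An absolute log2 fold change under 0.1 was found for 133 members, or 65.8%, against 68.8% of all tested genes and 88.5% of lower-numbered genes at 5 CPM or more. Under 0.2 were 176 members, or 87.1%, against 83.4% of all tested genes and 98.7% of the lower-numbered genes. Under 0.5 were 198 members, or 98.0%, against 95.2% and 99.95% of the same sets. The lower-numbered genes had a median level of 43.0 CPM, against 12.5 CPM for the members, so these shares are not matched for level. Only the members were limited to a ratio under 2, which left out 4 recent models at 5 CPM or more. The shares are thus a description and not a comparison of like sets. All 202 members passed the filter on low counts.

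**Figure D2:**
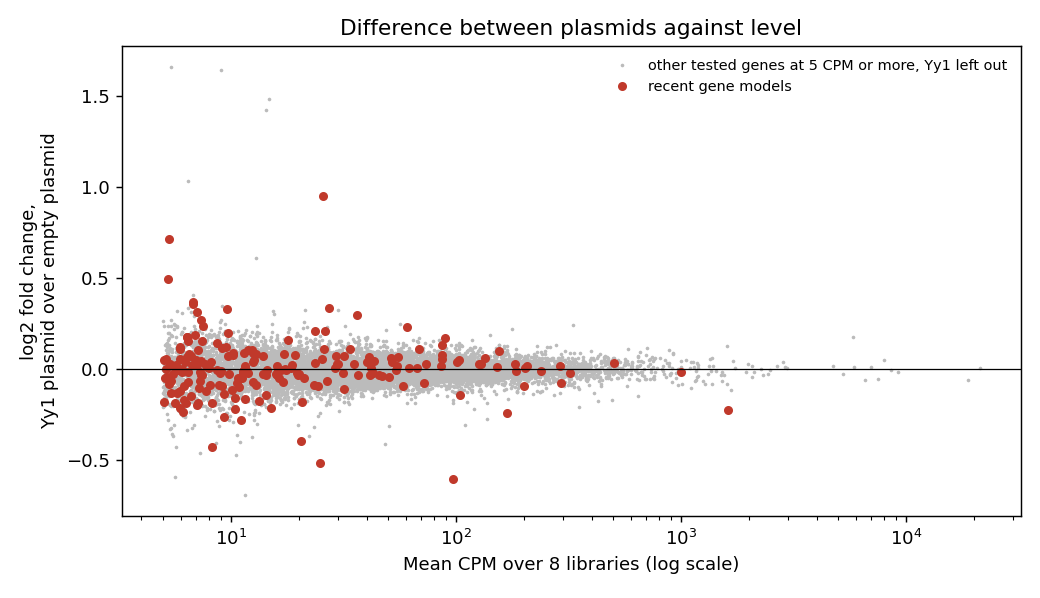
Log2 fold change (Yy1 plasmid over empty plasmid) against mean CPM over 8 libraries (log scale) for the 202 recent gene models and for the other tested genes at 5 CPM or more, with Yy1 left out. Of the 202 models, 176 lie within 0.2 of zero, and the values run from -0.61 to 0.95.

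edgeR's quasi-likelihood test with Benjamini-Hochberg adjustment called 2 members higher with the Yy1 plasmid, where the background was 0.496% of all tested genes, and 0 lower, where it was 0.0188%. DESeq2 also called 2 members higher and 0 lower. At an unadjusted p under 0.05 there were 15 members higher and 7 lower, with backgrounds of 3.23% and 2.19%. The libraries of the groups did not overlap for 7 members that were higher and 5 that were lower with the Yy1 plasmid, with backgrounds of 2.25% and 1.75%. The rule kept out models whose ratio reached 2, and its level limit can admit a model through the group where it is higher. None of these counts thus says how recent models as a whole respond.

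The member with the largest difference was ENSMUSG00000120369. It had 32.9, 33.1, 35.3 and 33.5 CPM with the Yy1 plasmid, against 18.7, 15.8, 20.7 and 15.1 CPM with the empty plasmid. Every Yy1 plasmid library was above every empty plasmid library, and the ratio of group means was 1.92. The log2 fold change was 0.95 (SE 0.0786), and the model was called in all 16 alternative settings (edgeR, DESeq2 or limma-voom adjusted p of at most 1.53e-05). Without empty plasmid 33 the ratio was 2.04, which would place it outside the rule. Its values were fractional in all 8 libraries.

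The other called member, ENSMUSG00000127648, averaged 5.25 CPM over all libraries, 6.14 CPM with the Yy1 plasmid and 4.36 CPM with the empty plasmid. It thus passed the limit of 5 CPM only through the group where it was higher, so its call is a description. It had 6.48, 6.03, 5.60 and 6.44 CPM with the Yy1 plasmid, against 4.79, 4.69, 4.01 and 3.94 CPM with the empty plasmid. The groups did not overlap, but the call was marginal (log2 fold change 0.49, SE 0.112; edgeR's quasi-likelihood test, adjusted p = 0.0462). It was lost in 11 of 16 alternative settings, among them each of the 8 that leave out 1 library, with adjusted p from 0.0186 to 0.181 over the 16 (edgeR, DESeq2 or limma-voom). The count of members called was then 1 without any single library other than empty plasmid 31, and 3 without that one.

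The further members whose groups did not overlap had smaller differences. Those higher with the Yy1 plasmid were ENSMUSG00000129424 (log2 fold change 0.37), ENSMUSG00000138303 (0.35), ENSMUSG00000139722 (0.33), ENSMUSG00000120308 (0.31) and ENSMUSG00000120268 (0.12). ENSMUSG00000129424 had 8.44, 7.92, 7.28 and 6.95 CPM with the Yy1 plasmid, against 5.56, 5.96, 5.56 and 6.66 CPM with the empty plasmid. ENSMUSG00000138303 had 7.03, 7.54, 7.53 and 8.31 CPM with the Yy1 plasmid, against 5.84, 6.72, 5.54 and 5.73 CPM with the empty plasmid. In both the groups only just stood apart. Those lower with the Yy1 plasmid, besides Sssca1 and ENSMUSG00000120992, were ENSMUSG00000123148 (log2 fold change -0.27), ENSMUSG00000122408 (-0.22) and ENSMUSG00000121477 (-0.11). ENSMUSG00000123148 had 8.48, 8.69, 8.67 and 7.81 CPM with the Yy1 plasmid, against 10.3, 9.58, 11.2 and 9.60 CPM with the empty plasmid. None of these 10 was called.

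**Figure D3:**
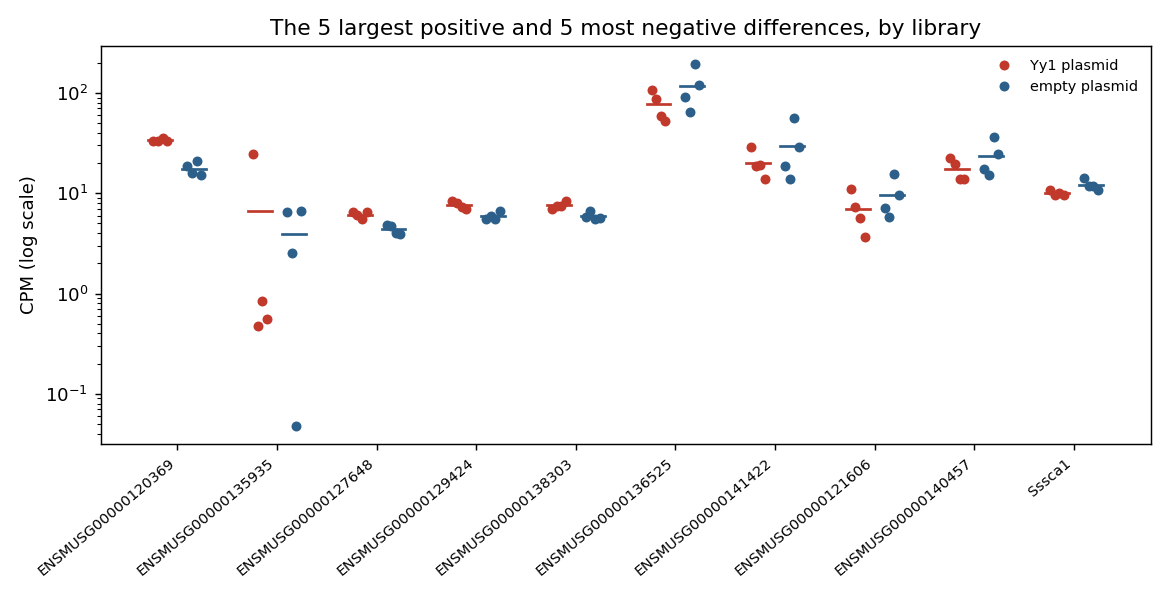
CPM (log scale) per library of the 5 members with the largest positive and the 5 with the most negative log2 fold change, with the Yy1 plasmid left of the empty plasmid and lines at the group means. The groups do not overlap for ENSMUSG00000120369, ENSMUSG00000127648, ENSMUSG00000129424, ENSMUSG00000138303 and Sssca1, and overlap for the other 5.

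Most of the most negative differences, though not that of Sssca1, went with a high value in empty plasmid 33. ENSMUSG00000136525 had 108, 87.9, 59.3 and 52.1 CPM with the Yy1 plasmid, against 90.7, 64.3, 194 and 121 CPM with the empty plasmid. The groups overlapped, empty plasmid 33 was the highest library, and the log2 fold change was -0.61 (SE 0.415). Without empty plasmid 33 the ratio of group means was 0.837, against 0.654 with all libraries. The same library was highest for ENSMUSG00000141422, ENSMUSG00000121606 and ENSMUSG00000140457, with log2 fold changes of -0.52, -0.43 and -0.40. Leaving it out put their ratios at 0.983, 0.925 and 0.919, against 0.685, 0.728 and 0.749 with all libraries. ENSMUSG00000141422 had 28.8, 18.7, 19.3 and 13.8 CPM with the Yy1 plasmid, against 18.8, 13.8, 56.2 and 28.8 CPM with the empty plasmid. The Sssca1 ratio of 0.822 was 0.816 without that library.

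These 4 models moved together over the libraries. Across the 8 libraries, the deviations of log2 CPM of ENSMUSG00000136525 from its group means had a Pearson r of 0.984 with ENSMUSG00000140457, 0.965 with ENSMUSG00000121606 and 0.946 with ENSMUSG00000141422. With the most abundant model, ENSMUSG00000119584, it was 0.752. The members most like ENSMUSG00000119584 in this measure were ENSMUSG00000118841 and ENSMUSG00000118866 (r = 0.943 each, the pair with equal values) and ENSMUSG00000141422 (r = 0.919), while the median over the other members was 0.0458. These r describe 8 libraries, and empty plasmid 33, the shallowest of them, was highest for each model named in this comparison.

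Empty plasmid 33 also held the largest number of members far from their group. Set against the median of the other 3 libraries of its group, 10 members were more than 1.5-fold above and 3 more than 1.5-fold below in it, together 6.44% of the members. In Yy1 plasmid 45 there were 8 above and 2 below, or 4.95%, and in the other 6 libraries 1.98% to 2.97%. Among lower-numbered genes at 5 CPM or more the share was 0.629% in empty plasmid 33 and at most 0.191% in any other library. Those genes had a median level of 43.0 CPM, against 12.5 CPM for the members, so the shares are not matched for level. Only 18 members departed this far in any library. The 10 above in empty plasmid 33 were ENSMUSG00000119584, ENSMUSG00000136525, ENSMUSG00000141422, ENSMUSG00000140457, ENSMUSG00000121606, ENSMUSG00000121080, ENSMUSG00000118841, ENSMUSG00000118866, ENSMUSG00000126238 and ENSMUSG00000139073. The 3 below were ENSMUSG00000124246, ENSMUSG00000121724 and ENSMUSG00000135935. The part of that library's lower depth in these values was not tested.

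**Figure D4:**
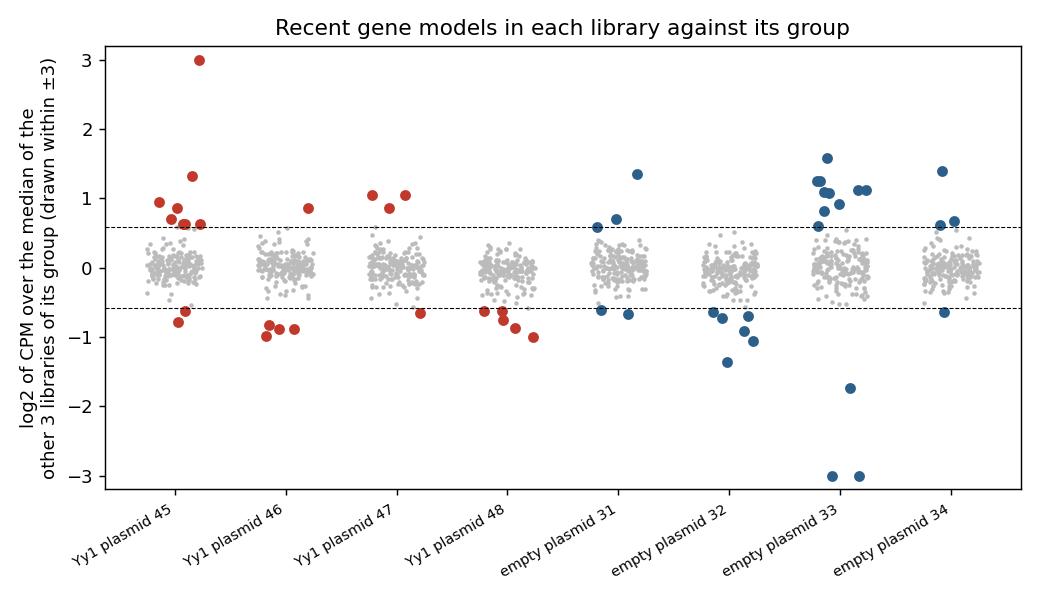
Log2 of each member's CPM over the median of the other 3 libraries of its group, by library, with the 4 Yy1 plasmid libraries left of the 4 empty plasmid libraries and dashed lines at 1.5-fold. Values beyond 3 or -3 are drawn at that limit. Coloured points lie beyond 1.5-fold, and empty plasmid 33 has the most, with 10 above and 3 below.

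Between replicate libraries the members varied by a median coefficient of variation of 8.90%, the mean of that in each group of 4. The 3 steadiest were ENSMUSG00000121877, ENSMUSG00000120747 and ENSMUSG00000122225. ENSMUSG00000121877 had 48.2, 49.0, 50.6 and 49.7 CPM with the Yy1 plasmid, against 51.8, 49.9, 51.1 and 51.8 CPM with the empty plasmid, a coefficient of 1.91%. The least steady was ENSMUSG00000135935, at 131%. It had 24.7, 0.472, 0.840 and 0.560 CPM with the Yy1 plasmid, against 6.48, 2.53, 0.0484 and 6.63 CPM with the empty plasmid. Yy1 plasmid 45 decides its ratio of 1.70, and without that library its log2 fold change was -2.66, against 0.71 with all libraries. That library also decides its place among the members, as its mean of 5.28 CPM passes the level limit only through it. Limma-voom, with all libraries, gave -0.40. In empty plasmid 33 it had 1 count, and it was the only member with under 10 counts in any library. ENSMUSG00000124246 followed, with 48.7, 17.8, 35.3 and 19.4 CPM with the Yy1 plasmid, against 47.5, 33.8, 2.80 and 29.2 CPM with the empty plasmid. Its groups overlapped widely, with empty plasmid 33 lowest.

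Within the same ranges of level the members varied somewhat more than lower-numbered genes. From 5 to 10 CPM the median coefficient was 10.9% for members and 9.15% for lower-numbered genes, from 10 to 20 CPM 8.36% and 7.07%, from 20 to 50 CPM 7.06% and 5.18%, and at 50 CPM or more 5.46% and 3.93%. Within the ranges under 50 CPM the members' median level was the lower, at 6.73 and 7.45, 12.9 and 14.6, and 29.4 and 32.7 CPM. Long noncoding genes had 9.96%, 8.08%, 6.51% and 5.12% in the same ranges, and pseudogenes 17.1%, 12.02%, 9.52% and 10.2%. In the empty plasmid group without library 33, members were still above lower-numbered genes, with 9.92% and 8.25%, 7.58% and 6.43%, 7.54% and 4.74%, and 5.77% and 3.60% in the 4 ranges. The order of the other classes did not hold without that library. Long noncoding genes then had 7.78% from 5 to 10 CPM, below lower-numbered genes, and at 50 CPM or more they had 3.80%, against 5.75% with all 4 libraries. Pseudogenes from 20 to 50 CPM then had 6.25%, below the members, against 11.5% with all 4 libraries. Members that were fractional in all libraries had a median of 8.86%, against 10.5% for those whole in all, which were also lower in level, with medians of 16.1 and 8.20 CPM. These are descriptions over genes, and the differences were not tested.

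**Figure D5:**
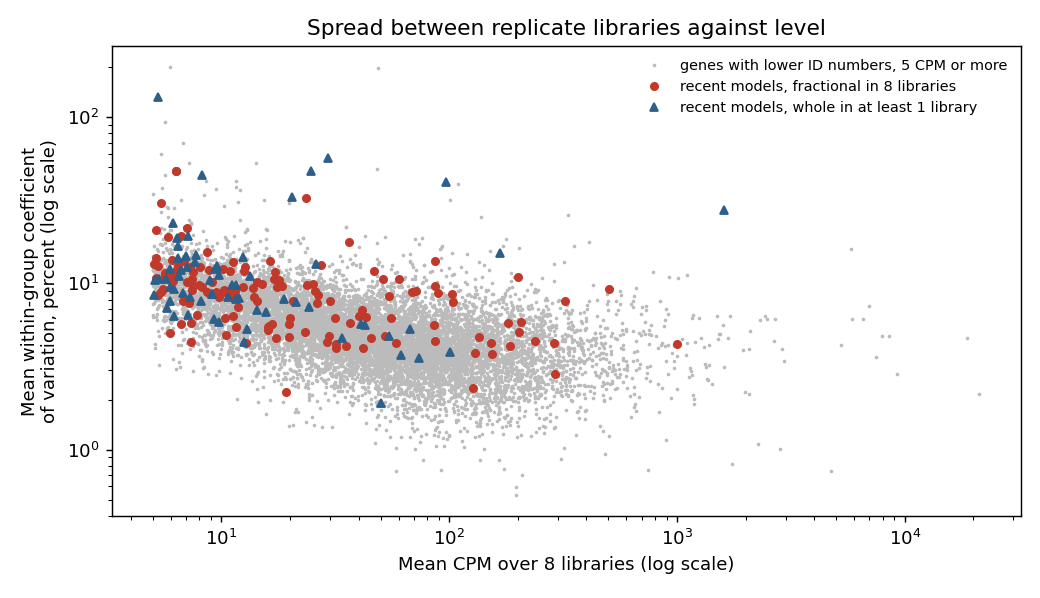
Mean within-group coefficient of variation in percent (log scale) against mean CPM (log scale), for recent gene models with fractional values in all 8 libraries, for those whole in at least 1, and for lower-numbered genes at 5 CPM or more. The members have a median of 8.90%, with ENSMUSG00000135935 highest at 131%.

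The values nearest to each limit of the rule were as follows. Just inside the level limit were ENSMUSG00000144201 and ENSMUSG00000121760, both at a mean of 5.06 CPM, and just outside ENSMUSG00000142977 at 4.99 CPM and ENSMUSG00000136915 at 4.98 CPM. Just inside the limit on the ratio were ENSMUSG00000120369 at 1.92 and ENSMUSG00000135935 at 1.70. Outside it were 4 models, ENSMUSG00000131581 at 2.05, ENSMUSG00000132270 at 2.71, ENSMUSG00000135050 at 3.17 and ENSMUSG00000134131 at 3.17. The lowest ID numbers inside were AC158975.2 and Sssca1, and the nearest below at 5 CPM or more were Itprip, with a ratio of 1.03, and AC115631.1, with a ratio of 1.06.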

How the data were processed

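The deposited table holds estimated counts per Ensembl gene (expected counts, partly fractional, not scaled for depth), which the authors made with fastp and kallisto on build GRCm39, per the submitters' processing notes. Versions and the way transcripts were summed to genes are not given in the sources used here. The sample descriptions tie each of the 8 columns to a library. CPM was computed on the column sums. A value counted as whole within 1e-06. For tests, counts were rounded, kept where filterByExpr passed them (at least 10 counts, total 15), scaled with TMM factors and fitted with edgeR 4.0.16 in R 4.3.3 (glmQLFit and glmQLFTest, robust, two-sided, Benjamini-Hochberg over 15916 genes, threshold 0.05). The common biological coefficient of variation was 0.0567. An SE is the size of the log2 fold change over the square root of F. The fit was tested on simulated data in which all genes had this common coefficient of 0.0567. That setting does not match members that varied more between libraries.

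The members and lists were chosen with earlier results of these data known. Besides Yy1, the rule named the 12 highest levels, the 5 largest differences each way, called members, the 3 highest and lowest coefficients of variation, the nearest IDs at each limit, all members with a symbol and the 3 most like the most abundant one. Models named for libraries that do not overlap, for departing libraries, for runs of ID numbers or for an ID of the higher series were chosen after their values were seen. Symbols came from GENCODE mouse release 21 (48278 IDs matched, 359 of them recent) and promoters from RefSeq (2 members matched), so no coordinates of the files' build are given. Alternatives were other scalings and filters, DESeq2 1.42.0, limma-voom (limma 3.58.1), Yy1 left out before scaling, other limits of the rule and each library left out.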

Additional observations from a re-analysis of the deposited data

Results flagged for a closer look

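In 80 groups of 4 libraries, the gap of a library to the nearest of the others was divided by the group's range. In 7 of them, all of named members, this share passed Dixon's critical value for groups of this size. Chance gives about 1 in 20 groups. Over all members it was 16 of 404 groups, or 3.96%, against 4.94% for lower-numbered genes. Empty plasmid 33 was the high one for ENSMUSG00000141158 (gap share 0.863; 1055 CPM beside 981 to 991 CPM), ENSMUSG00000120992 (0.883; 320 CPM beside 291 to 295 CPM), ENSMUSG00000121042 (0.938; 257 CPM beside 234 to 236 CPM) and ENSMUSG00000127259 (0.855; 263 CPM beside 185 to 196 CPM). It was the low one for AC136710.2 (0.954; 4.53 CPM beside 5.48 to 5.52 CPM). Empty plasmid 31 was low for AC158975.2 (0.871; 121 CPM beside 130 to 131 CPM). Yy1 plasmid 45 was high for ENSMUSG00000135935 (0.985; 24.7 CPM beside 0.472 to 0.840 CPM).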

How the results depend on the processing

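All genes called numbered 82, against 54 when only genes at 1 CPM in 4 libraries were kept, 174 with no filter (151 higher and 23 lower) and 65 to 87 when 1 library was left out. Members called numbered 2, against 1 with the 1 CPM filter, with library size alone and with limma-voom, 5 with no filter, and 1 to 3 when 1 library was left out. The rule gave 202 members, 122 with a limit of 10 CPM, 150 to 238 over the other limits tried and 201 to 204 when 1 library was left out. The members' median log2 fold change stayed between -0.0113 and 0.019, and the ratio of their sums between 0.946 and 1.02. It was 1.001 without the 13 members that departed in empty plasmid 33, an alternative chosen after seeing the data. The log2 fold change of Yy1 ran from 4.84 to 4.94. DESeq2 called 85 genes. No paired analysis was possible because the groups share no replicate number. Depth limits most the members near 5 CPM and empty plasmid 33.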
